A study of Rattus norvegicus with 12 samples.

Results

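Amino acid catabolism and one-carbon enzymes of the rat kidney were followed here through 41 named genes. They were found as the array probes, control spots excluded, whose RefSeq accession maps to these gene symbols, and for a gene with several such probes the brightest one on average over the 12 arrays was taken. A probe was named for 39 of the 41, out of 48976 genes and unnamed single probes on the array. None was named for Gldc, the glycine-cleaving subunit of the glycine cleavage system, or for Shmt1, the cytosolic serine hydroxymethyltransferase, and both are not analysed here. All 39 were well above background on all 12 arrays, so that each had a measured level in each group and none entered through the filter on dim probes only because of the group in which it was high.

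Cortex RNA came from 12 male rats of the Sprague-Dawley stock (Crl:CD(SD)), bought at an age of 5 weeks, with 1 array per animal. Groups of 3 animals, which the labels call biological replicates, received cisplatin by gavage (3.75 mg/kg/day) or water by gavage in one experiment, and cisplatin by the intravenous route (0.75 mg/kg/day) or water by that route in the other, each for 4 weeks. Cisplatin, a platinum compound used against tumours, binds DNA and is taken up by kidney tubule cells. Route, dose and experiment changed together, and the intravenous dose is the one on each sample's label, because the shared protocol text gives 3.75 mg/kg/day for all animals. The cortex is a mixture of tubules, glomeruli, vessels and interstitium, so in these bulk samples fewer cells of a type and less RNA per cell cannot be told apart.

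The kidney cortex is one of the main sites of amino acid metabolism in the body. Its proximal tubule cells reabsorb the filtered amino acids and carry enzymes that break them down, make arginine and the creatine precursor guanidinoacetate, and turn choline-derived betaine and sarcosine into methyl groups and folate-bound single carbons. Breakdown runs through mitochondria, cytosol and peroxisomes, and the nitrogen that is released is handled by transaminases, glutamate dehydrogenase and glutamine synthetase.

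All signals below are deposited processed intensities relative to the 75th percentile of the array, so a signal of 1 is the level of the probe at that percentile, and signals of different probes are not set against each other. Changes are log2 differences of group means with their standard error (SE) from a limma fit to all 12 arrays (3 per group), and a gene was called at a Benjamini-Hochberg adjusted p under 0.05 over 34444 features. The 75th percentile of intensity was 1387 to 1532 on cisplatin arrays, against 969.7 to 1055 on water arrays. The share of probes well above background was 66.1% to 73.9%, with 0 saturated. Principal component 1, with 75.5% of the variance over all features tested, had scores of 54.5 to 138 for the 6 cisplatin arrays against -106 to -100.2 for the 6 water arrays. The arrays lay on 3 slides. Slide 1 carried gavage cisplatin replicate 1 beside all gavage water arrays, slide 2 the other gavage cisplatin arrays beside all intravenous water arrays, and slide 3 only intravenous cisplatin arrays, so the intravenous cisplatin group and its slide cannot be told apart.

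Cisplatin by gavage was accompanied by lower signal of nearly the whole set. Of the 39 genes 37 fell, 1 rose (Arg2) and 1 did not pass the test (Prodh), against 29.8% of all features tested that fell and 29.5% that rose (59.3% in either direction). The median change of the 39 genes was -2.58 on the log2 scale, from -4.84 to 0.49, beside a median of 0.01 over all features tested. With intravenous cisplatin 36 of the 39 fell, 0 rose and 3 did not pass (Pipox, Prodh and Got1), against 32.0% of all features that fell and 26.4% that rose (58.4% in either direction). The median change there was -1.70, beside -0.06 over all features. The number of genes that fell in both experiments was 35.

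The arrays separated in the same way before any test. In 37 of the 39 genes the 3 gavage cisplatin arrays all lay below the 3 gavage water arrays, against 33.7% of all features, and in 36 of 39 the 3 intravenous cisplatin arrays all lay below their water arrays, against 36.3% of all features. Once the slide entered the fit as a fixed block, the gavage comparison rested on slide 1 alone, with 1 cisplatin array against 3 water arrays, so that the median change of -2.21 is that of gavage cisplatin replicate 1. That fit called 36 genes lower and 0 higher, beside 24.8% of all features lower and 21.9% higher, and it takes the lone array to vary like the others. When the arrays were scaled by the added spike-in RNA in place of the 75th percentile, the median change of all features was 0.66 in the gavage and 0.50 in the intravenous comparison. On that scale 35 genes fell and 1 rose with gavage cisplatin (median -1.93) and 27 fell and 0 rose with intravenous cisplatin (median -1.14), and Arg2 (intravenous comparison), Prodh and Got1 (both comparisons) turned to small positive changes. Of all features 9.62% fell and 62.5% rose by gavage there, and 9.3% fell and 54.2% rose by the intravenous route. The calls lost on that scale were those of Glul and Got1 with gavage cisplatin and of Aass, Acy3, Amt, Arg2, Ass1, Cbs, Fah, Hpd and Sardh with intravenous cisplatin.

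**Figure D1:**
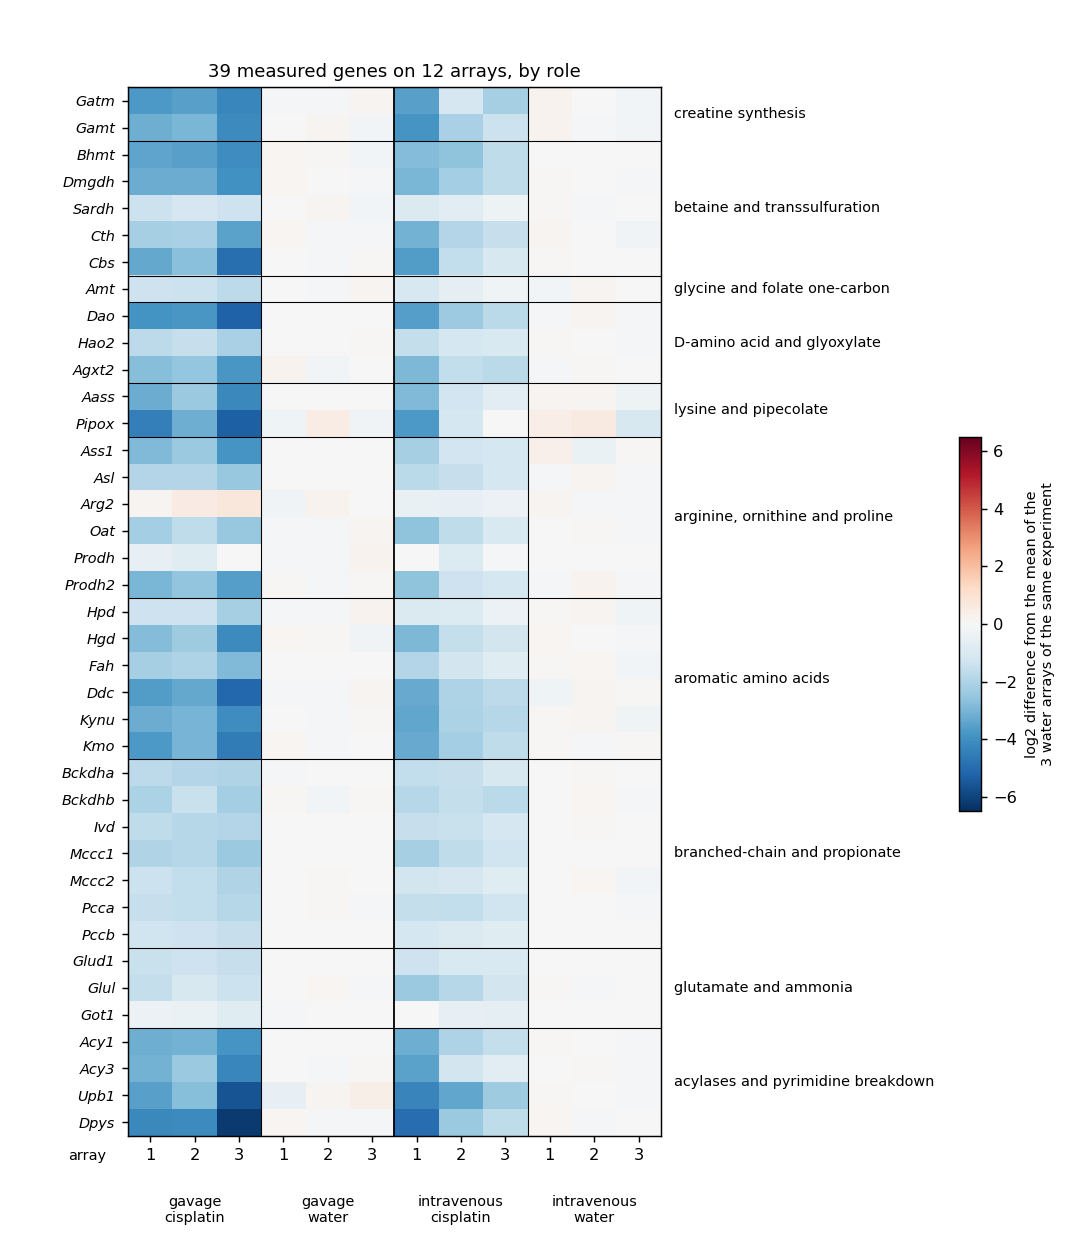
Log2 difference of each of the 39 measured genes (rows, grouped by role) on each of the 12 arrays (columns) from the mean of the 3 water arrays of the same experiment, with blue for lower and red for higher. The cisplatin columns are blue in nearly all rows, with medians of -2.21, -2.11 and -3.46 for the gavage arrays and -2.60, -1.49 and -1.14 for the intravenous arrays, while Arg2 is above its water mean on the 3 gavage cisplatin arrays.

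The cortex identity of the samples was checked with 10 proximal tubule markers, among them Lrp2 (the endocytic receptor megalin) and Slc34a1 (a phosphate transporter), which were above background on all 12 arrays. Their summed signal was 144 to 350 on gavage cisplatin arrays and 1992 to 2311 on gavage water arrays. It was 253 to 856 on intravenous cisplatin arrays and 1968 to 2277 on intravenous water arrays. Of the 10 markers 10 fell with gavage cisplatin (median change -3.02) and 9 with intravenous cisplatin (median -1.71). For this and the marker lists below, 29.8% of all features fell and 29.5% rose by gavage. By the intravenous route 32.0% of all features fell and 26.4% rose. Among 6 markers of injured tubule cells, such as Havcr1 and Lcn2, 5 rose with gavage and 6 with intravenous cisplatin. The summed signal of that list was 318 to 371 on gavage cisplatin arrays against 23.9 to 26.9 on gavage water arrays, and 267 to 392 on intravenous cisplatin arrays against 21.7 to 25.3 on intravenous water arrays. Of 5 fibroblast markers 5 rose in each experiment, and their summed signal was 100.2 to 142 with gavage cisplatin against 23.8 to 33.7 with gavage water, and 68.3 to 125 with intravenous cisplatin against 22.4 to 31.6 with intravenous water. Of 5 tested markers of the thick limb and distal tubule 5 fell in each experiment (median change -2.36 by gavage and -2.26 by the intravenous route). The summed signal of that list was 7.45 to 13.9 with gavage cisplatin against 461 to 507 with gavage water. It was 8.56 to 49.3 with intravenous cisplatin against 471 to 560 with intravenous water. Most of the sum on water arrays was Umod (419, 461 and 414 by gavage, 503, 424 and 494 by the intravenous route). Umod alone changed by -8.95 with gavage and -6.33 with intravenous cisplatin. Of 6 collecting duct markers 4 fell in each experiment, 3 of them in both. The sum of all 6 was 139 to 239 with gavage cisplatin against 172 to 205 with gavage water. It was 94.6 to 185 with intravenous cisplatin against 152 to 164 with intravenous water. Aqp2 was the largest part of that sum and did not pass in either experiment (limma adjusted p = 0.275 and 0.614). Of 5 podocyte markers 4 fell in each, with sums of 15.9 to 18.9 against 28.3 to 32.9 (gavage cisplatin against gavage water) and 17.5 to 18.7 against 24.04 to 26.9 (intravenous cisplatin against intravenous water). With spike-in scaling 0 podocyte markers fell in either experiment and 1 rose with intravenous cisplatin. Of the collecting duct markers 2 fell and 1 rose by gavage on that scale, and 1 fell and 1 rose by the intravenous route. Proximal tubule markers kept 9 and 7 falls there (gavage and intravenous), thick limb and distal tubule markers 5 and 5. Of all features spike-in scaling set 9.62% lower and 62.5% higher by gavage, and 9.3% lower and 54.2% higher by the intravenous route. With normexp background correction Slc26a4 (collecting duct) lost its intravenous call (adjusted p = 0.0776). Macrophage markers rose in 5 of 6 with gavage and 4 of 6 with intravenous cisplatin, with sums of 10.6 to 16.2 with gavage cisplatin against 3.75 to 4.14 with gavage water, and 10.5 to 14.5 with intravenous cisplatin against 3.78 to 5.95 with intravenous water. Of 4 tested lymphocyte markers 0 were called with gavage and 3 rose with intravenous cisplatin, where the sum was 0.643 to 1.95 with cisplatin against 0.421 to 0.559 with water. The summed signal of the hepatocyte list was 7.38 to 11.1 with gavage cisplatin against 1.68 to 2.94 with gavage water, and 7.44 to 16.7 with intravenous cisplatin against 2.43 to 3.30 with intravenous water. Of its 4 tested genes Fga rose by 2.45 and 2.499 with gavage and intravenous cisplatin, Serpina1, not well above background on any water array, was at least 5.51-fold and 3.02-fold higher, Apob changed by -2.24 and -3.72, and Apoa1 did not pass. The intravenous rise of Serpina1 lost its call with normexp background correction (adjusted p = 0.0821). The defining hepatocyte markers Alb and Ttr were not tested, because they were not well above background on all 3 arrays of any group. The part of these lists in the changes of the 39 genes was not tested.

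The promoters of these genes were searched for 4 short motifs that are named for regulators of tubule and amino acid genes, on both strands of the window from 250 bases before to 50 bases after the RefSeq start (GRCr8). The table of promoters held 33 of the 39 genes. The core of the HNF4 element, CAAAGTC, was in 6 of the 33 (18.2%, in Agxt2, Dao, Glul, Hao2, Kmo and Pipox), beside 4.54% of all 27457 promoters. The nuclear receptor hexamer AGGTCA, which can overlap that core, was in 10 of 33 (30.3%), beside 15.7% of all. The part of the HNF1 site GTTAAT was in 2 of 33 (6.06%, Hpd and Prodh2), beside 7.37% of all, and the core of the ATF4 element, TGATGCA, was in 2 of 33 (6.06%, Ddc and Got1), beside 2.76% of all. All 6 HNF4 cores lay before the start, at 48 to 228 bases. The 3 promoters below belong to genes that fell in both experiments and hold that core within 100 bases of the start. Each line gives the 250 bases before the start, 5′ to 3′ on the gene's strand from RefSeq, with the HNF4 core in capitals, together with the hexamer that overlaps it in Dao.
Dao, chr12:48273301-48273550 (minus strand): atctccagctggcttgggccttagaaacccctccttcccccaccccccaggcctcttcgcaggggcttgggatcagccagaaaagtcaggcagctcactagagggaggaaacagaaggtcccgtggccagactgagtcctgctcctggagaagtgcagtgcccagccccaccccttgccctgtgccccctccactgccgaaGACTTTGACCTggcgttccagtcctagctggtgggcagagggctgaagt
Kmo, chr13:90089271-90089520 (plus strand): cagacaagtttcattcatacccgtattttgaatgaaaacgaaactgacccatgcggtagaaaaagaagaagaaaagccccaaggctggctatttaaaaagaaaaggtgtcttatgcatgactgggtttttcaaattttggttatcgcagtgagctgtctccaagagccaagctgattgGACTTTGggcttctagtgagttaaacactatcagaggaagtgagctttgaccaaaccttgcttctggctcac
Agxt2, chr2:61063166-61063415 (plus strand): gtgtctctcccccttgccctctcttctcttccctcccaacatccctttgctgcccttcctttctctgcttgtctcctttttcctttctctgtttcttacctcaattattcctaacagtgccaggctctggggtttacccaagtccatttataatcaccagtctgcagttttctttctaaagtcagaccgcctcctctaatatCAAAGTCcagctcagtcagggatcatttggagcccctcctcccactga
The core begins 49 bases before the start in Dao, 72 in Kmo and 48 in Agxt2, and is read on the opposite strand in Dao and Kmo. These matches describe letters in a window and say nothing of binding.

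Creatine synthesis begins in the proximal tubule, where Gatm (glycine amidinotransferase) joins arginine and glycine to guanidinoacetate, which Gamt methylates to creatine. Both genes fell in both experiments. Gatm had signals of 2.83, 3.25 and 1.98 in gavage cisplatin cortex, against 35.2, 35.9 and 43.5 in gavage water cortex, a change of -3.85 ± 0.47 (SE) on the log2 scale, or 14.4-fold lower (adjusted p = 7.06e-05). In the intravenous experiment its signals were 2.94, 15.5 and 7.44 with cisplatin and 39.05, 32.6 and 29.3 with water, 4.798-fold lower (adjusted p = 0.00233). The intravenous cisplatin arrays were far apart, and without replicate 1 the change was -1.64. For Gamt the intravenous experiment gave 1.84, 6.04 and 9.87 with cisplatin, against 30.6, 24.9 and 22.7 with water, a change of -2.43 ± 0.52 (adjusted p = 0.00279), and -1.74 without replicate 1 of the cisplatin group. Its gavage signals were 2.67, 3.09 and 1.35 with cisplatin and 23.7, 27.3 and 21.2 with water, 10.72-fold lower. No cisplatin array of either experiment reached the lowest water array for these genes.

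Betaine and its products pass methyl groups to homocysteine and to folate, and homocysteine not remethylated leaves through transsulfuration. All 5 genes of this group fell in both experiments, with a median change of -3.46 by gavage and -2.16 by the intravenous route. Cbs, cystathionine beta-synthase, which opens transsulfuration, had 3.29, 4.99 and 1.11 in gavage cisplatin cortex, against 33.5, 32.0 and 34.6 in gavage water cortex, a change of -3.66 ± 0.64 (adjusted p = 7.30e-04). Replicate 3 was the lowest array, and without it the change was -3.04. Bhmt, which moves a methyl group from betaine to homocysteine, had 6.496, 6.07 and 4.13 with gavage cisplatin and 74.7, 73.4 and 60.0 with gavage water, 12.6-fold lower (adjusted p = 3.79e-06). Its intravenous signals were 7.55, 8.78 and 16.9 with cisplatin and 52.7, 53.6 and 53.3 with water, 5.12-fold lower (adjusted p = 7.64e-05), and the cisplatin arrays were all far below the water arrays. For Cbs the intravenous change was -2.11 ± 0.64 (adjusted p = 0.0175), and -1.34 without replicate 1 of the cisplatin group. Dmgdh and Sardh are the mitochondrial dehydrogenases that demethylate dimethylglycine and sarcosine in turn, handing the carbons to folate. Dmgdh changed by -3.46 ± 0.30 with gavage and -2.28 ± 0.30 with intravenous cisplatin. Sardh moved least in the group, by -1.29 ± 0.16 and -0.66 ± 0.16 (adjusted p = 0.00518 in the intravenous comparison). Cth, cystathionine gamma-lyase, which releases cysteine, changed by -2.58 ± 0.42 and -2.16 ± 0.42.

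The glycine cleavage system splits glycine in mitochondria and loads its carbon onto folate, and Amt, its aminomethyltransferase subunit, was the only measured gene of the 3 in the glycine and folate group. Amt had 0.896, 0.868 and 0.709 with gavage cisplatin, against 2.21, 2.08 and 2.60 with gavage water (-1.48 ± 0.19, adjusted p = 9.05e-05). It had 0.915, 1.22 and 1.56 with intravenous cisplatin, against 1.66, 2.09 and 1.87 with intravenous water (-0.63 ± 0.19, adjusted p = 0.0152). The groups did not overlap in either experiment, but the gap in the intravenous one was small, and without intravenous water replicate 2 the adjusted p was 0.0556. Spike-in scaling gave an intravenous change of -0.07 (adjusted p = 0.792).

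Peroxisomes of the proximal tubule hold oxidases that make hydrogen peroxide from D-amino acids and from hydroxy acids. The 3 genes of this group fell in both experiments. Dao, D-amino acid oxidase, whose promoter is shown above, had 3.001, 3.30 and 1.17 in gavage cisplatin cortex, against 45.2, 44.3 and 45.7 in gavage water cortex. That is a change of -4.31 ± 0.46, or 19.9-fold lower (adjusted p = 2.99e-05). In the intravenous experiment Dao had 3.16, 7.53 and 11.3 with cisplatin and 36.1, 43.0 and 36.0 with water, 5.92-fold lower (adjusted p = 9.92e-04). The water arrays of Dao were close to each other in both experiments, while the cisplatin arrays were spread over more than 1 log2 unit. Agxt2, a mitochondrial aminotransferase that uses glyoxylate and clears methylated arginines, had 13.7, 16.3 and 6.69 with gavage cisplatin and 108, 81.1 and 92.7 with gavage water, 8.14-fold lower. Its intravenous signals were 13.8, 35.0 and 30.9 with cisplatin and 99.0, 111 and 106.8 with water, 4.29-fold lower (adjusted p = 9.83e-04). Hao2, the kidney hydroxy acid oxidase, moved less, by -1.78 ± 0.17 (adjusted p = 1.35e-05) and -1.23 ± 0.17 (adjusted p = 1.84e-04).

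Lysine is broken down through saccharopine by Aass, the mitochondrial aminoadipic semialdehyde synthase, while the peroxisomal Pipox oxidises pipecolate and sarcosine. Pipox had 0.0410, 0.0964 and 0.0224 with gavage cisplatin, against 0.730, 1.25 and 0.748 with gavage water, 19.7-fold lower (adjusted p = 0.00176). The intravenous values were 0.0319, 0.196 and 0.416 with cisplatin and 0.579, 0.654 and 0.211 with water, a change of -1.65 ± 0.87 that did not pass (adjusted p = 0.129). These 2 intravenous groups overlapped, because cisplatin replicate 3 lay above water replicate 3, and the change was -0.59 without cisplatin replicate 1 and -2.45 without cisplatin replicate 3, where it was called (adjusted p = 0.0333). Aass had 0.561, 1.71 and 2.41 with intravenous cisplatin, against 4.56, 4.49 and 3.19 with intravenous water (-1.61 ± 0.52, adjusted p = 0.0233). That call was lost without intravenous cisplatin replicate 1 (change -0.99, adjusted p = 0.0705) and without intravenous water replicate 1 or 2 (adjusted p = 0.0642 and 0.0632). In the gavage experiment Aass had 0.499, 0.862 and 0.259 with cisplatin and 4.76, 4.68 and 4.56 with water, 9.70-fold lower (adjusted p = 3.97e-04).

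The kidney is a main site of arginine synthesis from citrulline, through Ass1 and Asl, the argininosuccinate synthase and lyase, and both fell. Ass1 had 10.04, 13.5 and 5.16 in gavage cisplatin cortex, against 73.4, 70.7 and 74.8 in gavage water cortex, 8.21-fold lower (adjusted p = 6.09e-05). Its intravenous change was -1.53 ± 0.36 (adjusted p = 0.00492). Asl, the next enzyme, changed by -2.09 ± 0.19 with gavage and -1.45 ± 0.19 with intravenous cisplatin. Oat, the mitochondrial ornithine aminotransferase, had 12.9, 24.8 and 39.4 with intravenous cisplatin, against 79.0, 82.6 and 73.2 with intravenous water, 3.36-fold lower (adjusted p = 0.00168). Its gavage change was -2.11 ± 0.34, and all cisplatin arrays stayed below all water arrays in both experiments.

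Arg2, the mitochondrial arginase that splits arginine to ornithine and urea, went against the rest of the set in the gavage experiment. It had 2.14, 2.75 and 3.10 with gavage cisplatin, against 1.61, 2.22 and 1.84 with gavage water, a rise of 0.49 ± 0.16 on the log2 scale (adjusted p = 0.021). The groups overlapped, since cisplatin replicate 1 lay below water replicate 2, and the call was lost when gavage cisplatin replicate 2 or 3, or gavage water replicate 1 or 3, was left out (adjusted p = 0.0588, 0.0806, 0.083 and 0.0547). With intravenous cisplatin Arg2 had 2.69, 2.64 and 2.87, against 4.29, 3.45 and 3.60 with intravenous water, a fall of 0.46 ± 0.16 (adjusted p = 0.0281). That call was lost without intravenous cisplatin replicate 1 or 2, or without intravenous water replicate 1 (adjusted p = 0.0639, 0.0721 and 0.102), and with spike-in scaling the value was 0.10. The levels of the 2 cisplatin groups overlapped. The water groups differed by 1.01 ± 0.16, intravenous minus gavage (adjusted p = 0.0985), which did not pass. It passed when gavage cisplatin replicate 1 was left out of the fit (adjusted p = 0.00439), with the difference itself unchanged at 1.01. That fit called 1023 of 34444 features higher and 157 lower between the water groups, against 0 in the full fit. The difference of the 2 cisplatin effects was -0.96 ± 0.22 (adjusted p = 0.0685), the smallest adjusted p of the 39.

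Prodh and Prodh2 are the mitochondrial dehydrogenases for proline and hydroxyproline, and only Prodh2 passed the test. Prodh had 22.02, 18.5 and 30.9 with gavage cisplatin and 29.8, 29.4 and 37.5 with gavage water, a change of -0.46 ± 0.24 (adjusted p = 0.127). Its intravenous signals were 29.8, 16.4 and 28.8 with cisplatin and 30.1, 29.1 and 30.5 with water (-0.31 ± 0.24, adjusted p = 0.296). The gavage fall was called without gavage cisplatin replicate 3 (-0.66, adjusted p = 0.0427) and without intravenous cisplatin replicate 2 (adjusted p = 0.0472). On the probe used, the cisplatin and water arrays of Prodh overlapped in both experiments. Its further probes, of 4 in all, differed from that probe by up to 0.66 in their gavage change. They changed by -0.93, -1.12 and -0.37 with gavage and by -0.48, -0.52 and -0.44 with intravenous cisplatin. With the mean of all its probes the gavage fall of Prodh was called. Prodh2 had 5.498, 7.16 and 3.62 with gavage cisplatin and 45.1, 38.8 and 44.8 with gavage water, 8.19-fold lower (adjusted p = 5.28e-05), and its intravenous change was -1.70 ± 0.35 (adjusted p = 0.00235).

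**Figure D2:**
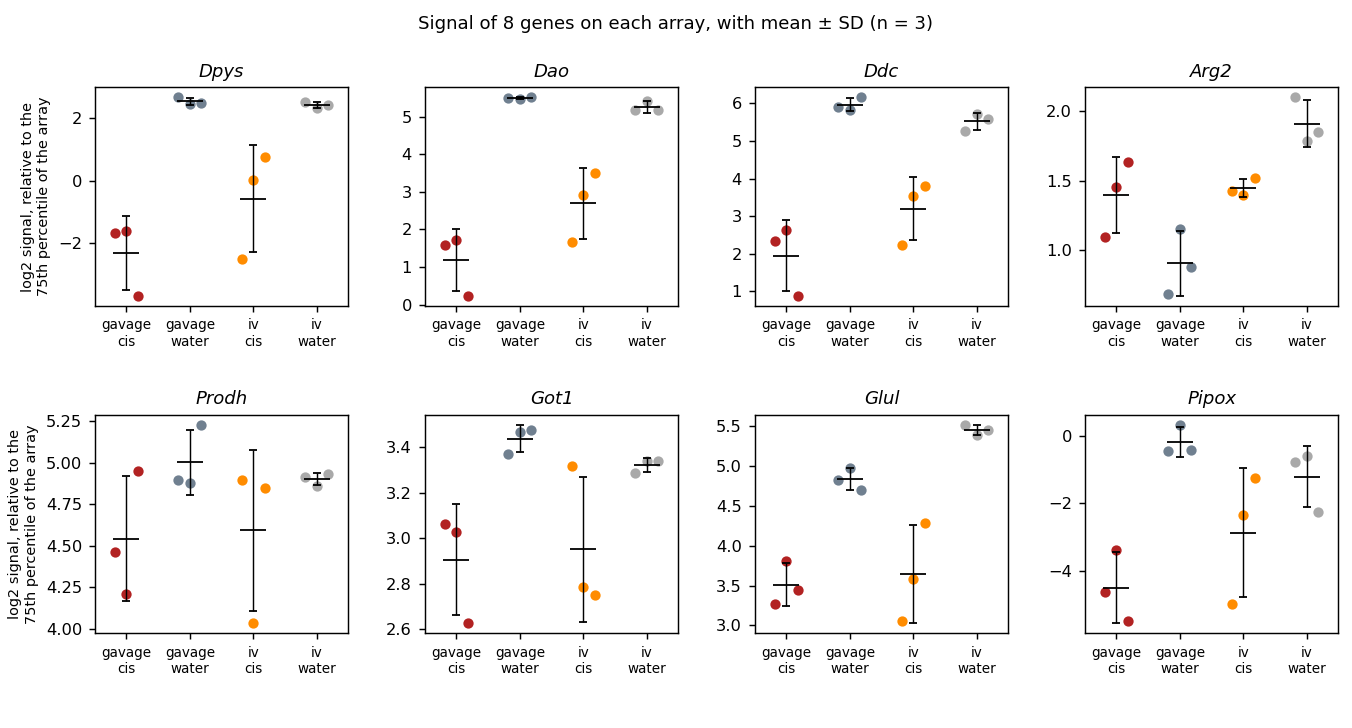
Log2 signal, relative to the 75th percentile of each array, of 8 genes on the arrays of the 4 groups (points), with the mean and SD of each group (n = 3). Dpys, Dao and Ddc show no overlap of cisplatin with water, Arg2 is higher with gavage cisplatin and lower with intravenous cisplatin than with its own water (the second sign turns with spike-in scaling), and Prodh overlaps in both experiments.

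Phenylalanine and tyrosine are degraded through Hpd, Hgd and Fah, and tryptophan through the kynurenine branch in which Kmo and Kynu act, while Ddc decarboxylates L-DOPA to dopamine in proximal tubule cells. All 6 genes fell in both experiments, with medians of -3.26 by gavage and -2.12 by the intravenous route. Ddc had 5.07, 6.17 and 1.83 in gavage cisplatin cortex, against 60.0, 57.0 and 71.8 in gavage water cortex, 16.2-fold lower (adjusted p = 5.66e-05). With intravenous cisplatin Ddc had 4.69, 11.6 and 13.9, against 38.6, 52.6 and 48.1 with intravenous water, 5.05-fold lower (adjusted p = 0.00203). The lowest array of Ddc was replicate 3 in the gavage and replicate 1 in the intravenous cisplatin group. Kynu, kynureninase, had 1.42, 3.56 and 3.99 with intravenous cisplatin and 15.6, 16.9 and 12.03 with intravenous water, a change of -2.43 ± 0.37 (adjusted p = 3.72e-04), and its gavage change was -3.44 ± 0.37. Kmo, kynurenine 3-monooxygenase of the outer mitochondrial membrane, whose promoter is shown above, had 0.433, 0.698 and 0.240 with gavage cisplatin, against 6.24, 5.27 and 5.57 with gavage water, 13.6-fold lower. Its intravenous signals were 0.609, 1.27 and 1.84 with cisplatin and 6.29, 5.30 and 6.11 with water, 5.22-fold lower (adjusted p = 8.45e-04). Within the tyrosine branch the changes were unequal. Hpd, the dioxygenase that makes homogentisate, changed by -1.61 ± 0.24 and -0.73 ± 0.24, Hgd, the homogentisate oxidase, by -3.09 ± 0.49 and -1.90 ± 0.49, and Fah, the last enzyme, by -2.35 ± 0.28 and -1.29 ± 0.28 with gavage and with intravenous cisplatin. The intravenous call of Hpd (adjusted p = 0.0236) was lost without cisplatin replicate 1 or 2 or water replicate 1 or 2, with adjusted p of 0.0672 to 0.0767.

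Branched-chain amino acids and propionate are oxidised wholly in mitochondria. All 7 genes of this group fell in both experiments, from -1.36 (Pccb) to -2.08 (Mccc1) with gavage cisplatin and from -0.96 (Pccb) to -1.72 (Bckdhb) with intravenous cisplatin. Mccc1, a subunit of the leucine-pathway carboxylase, had 9.20, 9.99 and 6.77 in gavage cisplatin cortex, against 35.6, 37.2 and 35.7 in gavage water cortex, 4.24-fold lower (adjusted p = 1.51e-05). Bckdhb, a subunit of the branched-chain ketoacid dehydrogenase, had 4.85, 5.96 and 5.20 with intravenous cisplatin, against 17.2, 19.4 and 16.1 with intravenous water, 3.29-fold lower (adjusted p = 5.54e-05). Its gavage change was -1.91 ± 0.19, and that of its partner Bckdha was -1.85 ± 0.13 with gavage and -1.38 ± 0.13 with intravenous cisplatin. The subunits of the other complexes fell as well. Mccc2, the partner of Mccc1, changed by -1.64 ± 0.16 and -1.02 ± 0.16 with gavage and with intravenous cisplatin. The propionyl-CoA carboxylase subunits changed by -1.66 ± 0.11 (Pcca) and -1.36 ± 0.10 (Pccb) with gavage cisplatin, and by -1.48 ± 0.11 and -0.96 ± 0.10 with intravenous cisplatin, in the same order. Ivd, isovaleryl-CoA dehydrogenase of the leucine pathway, changed by -1.79 ± 0.12 and -1.34 ± 0.12. The further probes of Pcca, of 3 in all, differed by up to 0.56 from the one used in their gavage change, with 1 sign.

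Glutamate and ammonia are handled by Glud1, mitochondrial glutamate dehydrogenase, by Glul, which makes glutamine, and by Got1, the cytosolic aspartate aminotransferase. Glud1 had 27.4, 29.5 and 27.3 with gavage cisplatin, against 74.8, 76.8 and 76.4 with gavage water, 2.71-fold lower (adjusted p = 2.21e-06). Its intravenous signals were 29.5, 37.2 and 37.3 with cisplatin and 73.3, 77.1 and 73.8 with water, 2.17-fold lower (adjusted p = 1.59e-05). The arrays of each group lay close together, with no cisplatin array near a water array. Glul had 8.30, 12.02 and 19.4 with intravenous cisplatin and 45.8, 42.0 and 43.8 with intravenous water, 3.51-fold lower (adjusted p = 2.48e-04). With gavage cisplatin Glul had 9.68, 14.1 and 10.9, against 28.4, 31.6 and 26.1 with gavage water, 2.504-fold lower. Glul and Arg2 were the 2 genes with a negative difference of the cisplatin effects, which for Glul was -0.49 ± 0.37 (adjusted p = 0.492). Got1 had 8.35, 8.16 and 6.17 with gavage cisplatin and 10.3, 11.1 and 11.1 with gavage water (-0.53 ± 0.16, adjusted p = 0.0154). That fall is the smallest among the genes called lower with gavage cisplatin. Its call was lost without gavage cisplatin replicate 3 (adjusted p = 0.0592), and spike-in scaling gave 0.12. In the intravenous experiment Got1 had 9.96, 6.90 and 6.72 with cisplatin, against 9.76, 10.1 and 10.1 with water (-0.37 ± 0.16, adjusted p = 0.0687), and here cisplatin replicate 1 lay among the water arrays, unlike in most other genes, where it was the lowest array. The intravenous fall of Got1 was called without that array (-0.55, adjusted p = 0.0057) and without gavage cisplatin replicate 3 (adjusted p = 0.0452).

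Acy1 and Acy3 are aminoacylases that free amino acids from their N-acyl forms, and Dpys and Upb1 are dihydropyrimidinase and beta-ureidopropionase, steps of pyrimidine breakdown that yield beta-alanine and beta-aminoisobutyrate. This group held the largest falls of each experiment. Dpys had 0.316, 0.332 and 0.0783 in gavage cisplatin cortex, against 6.35, 5.47 and 5.59 in gavage water cortex, a change of -4.84 ± 0.76, or 28.7-fold lower (adjusted p = 3.57e-04). Without gavage cisplatin replicate 3, the lowest array, it was -4.16. The intravenous signals of Dpys were 0.176, 1.01 and 1.701 with cisplatin and 5.78, 4.999 and 5.33 with water, 7.98-fold lower (adjusted p = 0.00696), and the change was -2.03 without replicate 1 and -3.67 without replicate 3 of the cisplatin group. The spread among its cisplatin arrays was wide, and all of them were still below the water arrays. Upb1 had 1.35, 2.56 and 5.29 with intravenous cisplatin, against 28.4, 26.6 and 25.1 with intravenous water, 10.1-fold lower (adjusted p = 0.00195). Its gavage signals were 2.02, 3.37 and 0.466 with cisplatin and 15.7, 25.5 and 30.0 with water, 15.6-fold lower, and the change was -4.56 without cisplatin replicate 2 and -3.14 without cisplatin replicate 3. Gavage water replicate 1 was low for Upb1 but lay above all cisplatin arrays. Acy1 changed by -3.37 ± 0.35 and -2.23 ± 0.35 with gavage and with intravenous cisplatin, and was called in both. Acy3 changed by -3.24 ± 0.64 with gavage and -1.78 ± 0.64 with intravenous cisplatin (adjusted p = 0.0353). The intravenous call of Acy3 was lost without cisplatin replicate 1 (change -0.94, adjusted p = 0.0894) and without each of the water arrays in turn (adjusted p = 0.0655 to 0.0818).

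Individual animals differed in how far the set fell. On the gavage cisplatin arrays the median difference of the 39 genes from their gavage water mean was -2.21, -2.11 and -3.46 for replicates 1, 2 and 3, while on the gavage water arrays it lay between -0.04 and 0.01. On the intravenous cisplatin arrays it was -2.60, -1.49 and -1.14, against -0.09 to 0.06 on the intravenous water arrays. Within the gavage cisplatin group replicate 3 was the lowest array for 35 of the 39 genes, and within the intravenous cisplatin group replicate 1 was the lowest for 35 and replicate 3 the highest for 34. The summed signal of the 39 probes was 348, 406 and 255 in gavage cisplatin cortex, against 1616 to 1718 in gavage water cortex. It was 364, 623 and 788 in intravenous cisplatin cortex and 1550 to 1701 in intravenous water cortex. The median SD of a gene between animals was 0.42 on the log2 scale with gavage cisplatin and 0.12 with gavage water, and 0.62 with intravenous cisplatin and 0.12 with intravenous water. Summed proximal tubule markers had the same order of animals, with 267, 350 and 144 on gavage cisplatin arrays 1, 2 and 3 and 253, 655 and 856 on intravenous cisplatin arrays 1, 2 and 3. So had summed thick limb and distal tubule markers, with 8.88, 13.9 and 7.45 (gavage) and 8.56, 30.9 and 49.3 (intravenous). The order of a sum is not that of each marker in it. On intravenous cisplatin arrays 1, 2 and 3 Umod kept the order, with 0.336, 20.6 and 29.3. Slc12a3 (4.39, 2.74 and 3.54) and the proximal tubule marker Cubn (34.5, 31.8 and 45.3) did not. Scores of principal component 1 over all features ran in the reverse order, with 120, 107.5 and 138 (gavage) and 116.9, 75.7 and 54.5 (intravenous). The part of these markers in the order of the animals was not tested.

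**Figure D3:**
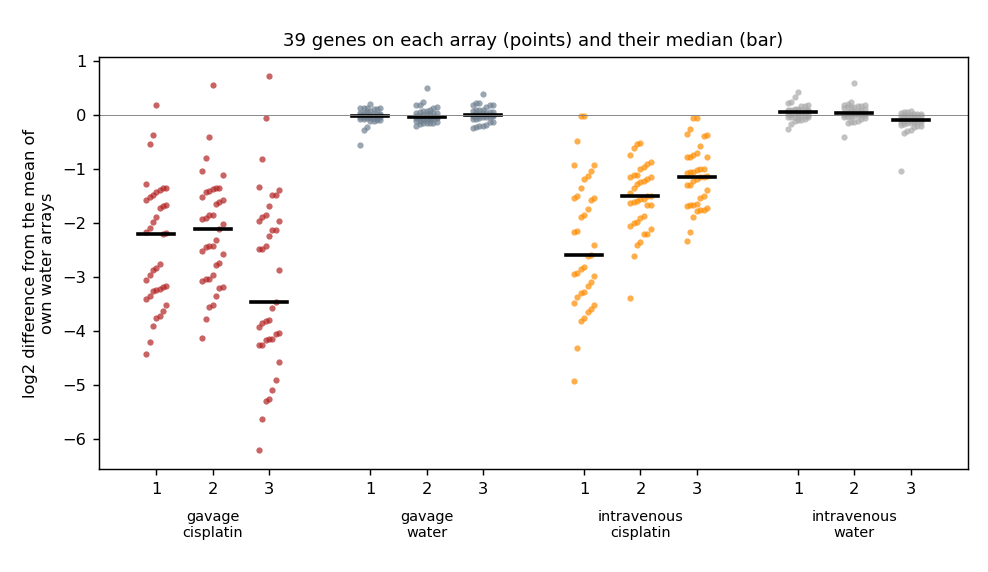
Log2 difference of the 39 genes (points) on each array from the mean of the water arrays of the same experiment, with the median of each array as a bar. Gavage cisplatin array 3 (-3.46) and intravenous cisplatin array 1 (-2.60) have the lowest medians of their groups, and the 6 water arrays lie near 0.

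The 2 experiments were compared by the difference of their cisplatin effects, intravenous minus gavage. No gene of the 39 passed this test (0 called, beside 1.20% of all features, 1.03% lower and 0.168% higher), although 37 of the 39 differences were positive, with a median of 0.89 beside -0.02 over all features. At an unadjusted limma p under 0.05, 21 genes were higher and 1 lower, beside 7.87% of all features higher and 11.6% lower. The largest positive difference was that of Pipox, 2.66 ± 1.23 (adjusted p = 0.27), and the adjusted p values ran from 0.0685 to 0.84. Both effects of a gene were fitted to the same 12 arrays, and the counts rest on 3 animals per group, so the absence of a call does not show equal effects. Leaving out an array changed the count in 2 cases. Without gavage cisplatin replicate 1, Arg2 passed as lower (-1.10 ± 0.20, adjusted p = 0.0107), beside 2033 of 34444 features called lower and 539 called higher. Without intravenous cisplatin replicate 1, 14 genes passed as higher (a weaker fall with intravenous cisplatin) and 0 as lower, beside 2.77% of all features called higher and 3.86% called lower (6.63% in all), and 35 of the 39 differences were positive, with a median of 1.11. The 14 were Gatm, Bhmt, Dmgdh, Amt, Dao, Aass, Pipox, Prodh2, Fah, Kynu, Pccb, Glud1, Acy1 and Acy3. Their differences in that fit ran from 0.43 (Glud1) to 3.71 (Pipox). Between the water groups limma called 0 of the 39 genes, beside 0% of all features. At an unadjusted p under 0.05 it gave 2 higher and 0 lower, beside 8.48% of all features higher and 5.64% lower, and the median difference, intravenous minus gavage, was -0.10.

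**Figure D4:**
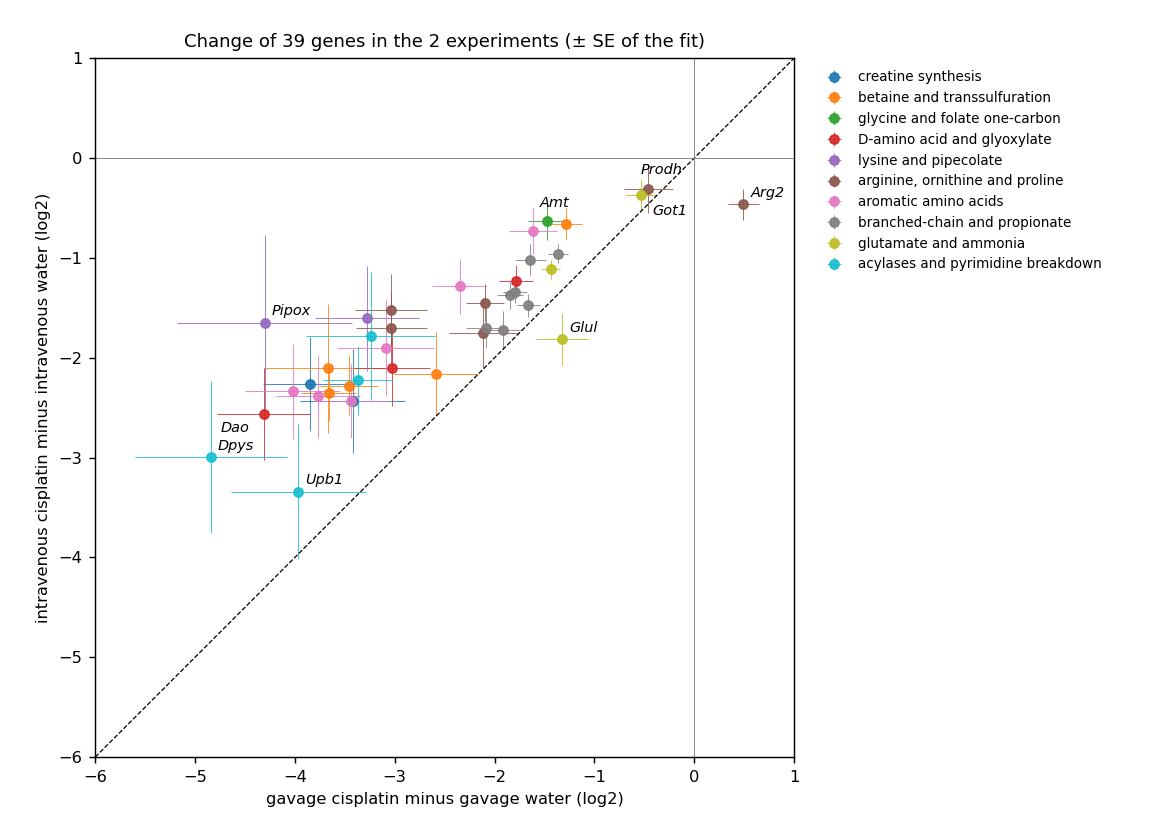
Log2 change of the 39 genes with gavage cisplatin (x axis) and with intravenous cisplatin (y axis), each against its own water group, with SE bars from the fit and the line of equal change dashed. Of the 39 points 37 lie above the line (a smaller fall, or difference above 0, in the intravenous experiment), and Arg2 and Glul lie below it.

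By the compartment in which the enzymes act, the 19 measured mitochondrial genes had a median change of -1.85 with gavage and -1.48 with intravenous cisplatin. The 17 cytosolic genes had medians of -3.24 and -2.11 with gavage and with intravenous cisplatin, and the 3 peroxisomal genes -4.30 and -1.65. Both peroxisomal medians are the values of Pipox, whose intravenous change did not pass (limma adjusted p = 0.129). The other peroxisomal genes, Dao and Hao2, changed by -4.31 and -1.78 with gavage cisplatin and by -2.57 and -1.23 with intravenous cisplatin. The compartments were assigned from textbook knowledge after the values were known, and no test was made between them. Of the 39 genes 15 had more than 1 named probe, and in all 15 the probes had 1 sign in both comparisons. The gap between probes was over 0.5 on the log2 scale in 2 of them, Pcca and Prodh.

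Other genes of the same pathways were followed in 3 lists. Of 44 tested genes for other steps of amino acid breakdown, 37 fell and 2 rose with gavage cisplatin (median -1.95), and 34 fell and 2 rose with intravenous cisplatin (median -1.52). Over all features 29.8% fell and 29.5% rose with gavage cisplatin, and 32.0% fell and 26.4% rose with intravenous cisplatin. With spike-in scaling 29 of the 44 genes fell and 6 rose with gavage cisplatin (median -1.29). On that scale 20 fell and 7 rose with intravenous cisplatin (median -0.96). Of all features it set 9.62% lower and 62.5% higher by gavage, and 9.3% lower and 54.2% higher by the intravenous route. The falls with the smallest p included Suox, the mitochondrial sulfite oxidase, with 1.88, 2.08 and 1.92 in gavage cisplatin cortex and 10.8, 11.02 and 11.5 in gavage water cortex (-2.50 ± 0.14, adjusted p = 8.02e-07). Suox changed by -1.88 ± 0.14 with intravenous cisplatin. Afmid, the formamidase of the kynurenine pathway, changed by -2.71 ± 0.17 and -2.26 ± 0.17 with gavage and with intravenous cisplatin. Dld, a dehydrogenase subunit shared by several mitochondrial complexes, changed by -1.23 ± 0.08 with gavage cisplatin, and Hibadh of valine breakdown by -1.58 ± 0.13 with intravenous cisplatin. The rises were few. Tdo2, which opens the kynurenine pathway, was not well above background on any water array, so that its signal was at least 1.98-fold higher with gavage cisplatin (adjusted p = 0.0318) and at least 2.32-fold higher with intravenous cisplatin (adjusted p = 7.02e-04), each bound being the cisplatin mean against the lowest signal well above background or the probe's own on the water arrays. Sds, serine dehydratase, rose by 1.18 ± 0.18 with gavage cisplatin, but its probes disagreed and their mean gave -0.87. With normexp background correction Tdo2 was not called by gavage (adjusted p = 0.863).

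Of 15 tested genes of the methionine and folate cycle 13 fell and 2 rose with gavage cisplatin (median -1.55), and 11 fell and 1 rose with intravenous cisplatin (median -0.90). Over all features 29.8% fell and 29.5% rose by gavage, and 32.0% fell and 26.4% rose by the intravenous route. With spike-in scaling 10 of them fell and 4 rose with gavage cisplatin (median -0.90). On that scale 5 fell and 3 rose with intravenous cisplatin (median -0.33). Of all features that scale set 9.62% lower and 62.5% higher by gavage, and 9.3% lower and 54.2% higher by the intravenous route. Mthfd1, a cytosolic folate enzyme with several activities, had 4.397, 4.95 and 3.81 with gavage cisplatin, against 19.3, 19.9 and 18.2 with gavage water (-2.13 ± 0.19). Its intravenous change was -1.48 ± 0.19. Aldh9a1, an aldehyde dehydrogenase that acts on betaine aldehyde, changed by -1.83 ± 0.19 and -1.40 ± 0.19 with gavage and with intravenous cisplatin, Mtr, methionine synthase, by -1.35 ± 0.14 with gavage cisplatin, and Mat2a, the widely expressed S-adenosylmethionine synthase, by -1.68 ± 0.19 with intravenous cisplatin. Mat1a, the S-adenosylmethionine synthase known from liver, rose by 2.33 ± 0.33 and by 1.47 ± 0.33 with gavage and with intravenous cisplatin, and was above background on 2 of the 3 intravenous water arrays. Fpgs, which adds glutamates to folate, rose by 0.59 ± 0.18 with gavage cisplatin (adjusted p = 0.0145). The gavage rise of Fpgs and the intravenous rise of Mat1a lost their call with normexp (adjusted p = 0.224 and 0.0688).

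The 18 tested genes of amino acid and polyamine synthesis were divided. With gavage cisplatin 6 fell and 9 rose (median 0.58), beside 29.8% of all features that fell and 29.5% that rose. With intravenous cisplatin 7 fell and 9 rose (median 0.32), beside 32.0% of all features that fell and 26.4% that rose. Spike-in scaling gave 4 lower and 11 higher by gavage, and 4 lower and 10 higher by the intravenous route. Over all features it set 9.62% lower and 62.5% higher by gavage, and 9.3% lower and 54.2% higher by the intravenous route. On that scale the counts of higher genes in this list lie near the shares of all features. Bcat1, the cytosolic branched-chain aminotransferase, had 1.78, 1.55 and 2.78 in gavage cisplatin cortex, against 0.0487, 0.0352 and 0.0372 in gavage water cortex (5.62 ± 0.41, adjusted p = 3.34e-06). Mthfd1l, a mitochondrial folate enzyme, had 0.752, 0.527 and 0.837 with gavage cisplatin and 0.0512, 0.0400 and 0.0395 with gavage water, and its change was 4.0 ± 0.20 with gavage and 3.72 ± 0.20 with intravenous cisplatin. Asns, asparagine synthetase, rose by 2.5 ± 0.12 and 2.15 ± 0.12 with gavage and with intravenous cisplatin. Cisplatin and water arrays did not overlap for these 3 genes in the gavage experiment. Aldh18a1, which starts proline synthesis, rose by 1.84 ± 0.16 with intravenous cisplatin. Genes of serine synthesis went the other way. Psat1, the phosphoserine aminotransferase, had 6.58, 5.28 and 5.58 with gavage cisplatin, against 45.9, 39.4 and 46.2 with gavage water (-2.92 ± 0.16, adjusted p = 7.04e-07), and Phgdh, the first enzyme of that route, changed by -1.71 ± 0.11 and -1.36 ± 0.11 with gavage and with intravenous cisplatin. Shmt2, the mitochondrial serine hydroxymethyltransferase, changed by -1.98 ± 0.21 with gavage cisplatin and Sms, spermine synthase, by -0.72 ± 0.08 with intravenous cisplatin. Of the 13 promoters found for this list, 0 held the HNF4 core, the HNF1 part or the ATF4 core (4.54%, 7.37% and 2.76% of all promoters), and 1 (7.69%) held the hexamer AGGTCA, beside 15.7% of all.

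**Figure D5:**
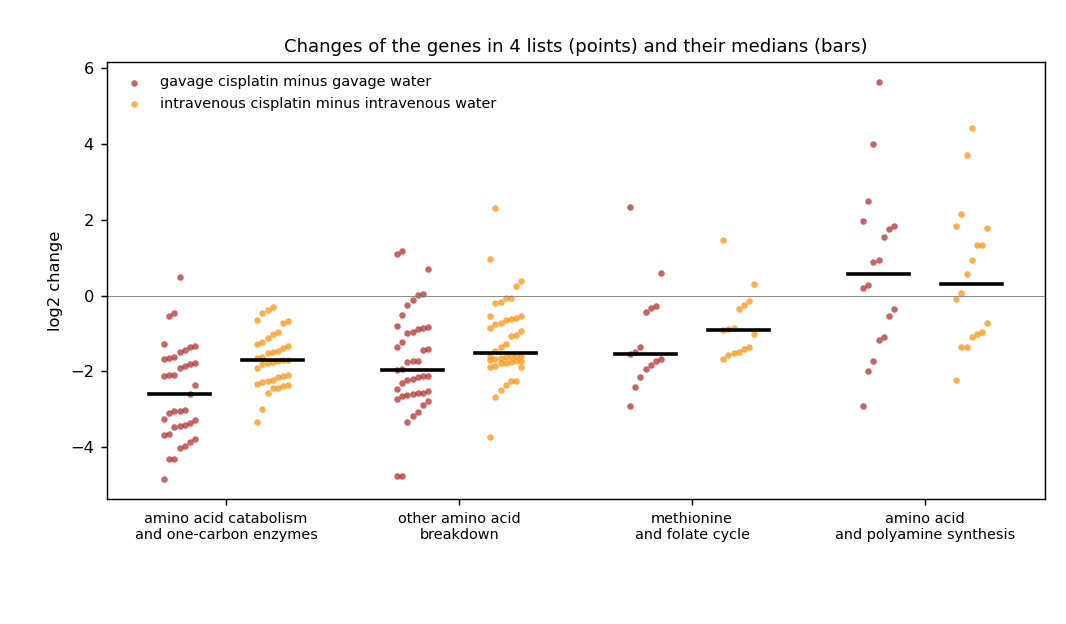
Log2 change with gavage and with intravenous cisplatin, each against its own water group, of the tested genes of 4 lists (points) with the median of each list as a bar. The medians are -2.58 and -1.70 for the 39 genes, -1.95 and -1.52 for other breakdown genes, -1.55 and -0.90 for the methionine and folate cycle, and 0.58 and 0.32 for amino acid and polyamine synthesis with gavage and with intravenous cisplatin.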

How the data were processed

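Per the submitters' processing notes, the spot values were extracted by Agilent Feature Extraction 10.7. The deposited processed intensity had its background subtracted, with no normalization between arrays, per the file headers. Compared with the scanner values, the authors' value table holds a linear ratio of that intensity to each array's 75th percentile (column medians 0.109 to 0.121). The reason for that scaling is not given.

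From the processed intensity, log2 values minus each array's 75th percentile were computed, with 1439 control spots and 82 uneven spots left out. Probe accessions were named from a RefSeq table (GRCr8, names only): 28206 of 61537 probes matched 1 symbol, 33331 none. Tested features (34444 of 48976) were well above background on each array of 1 group or more. Limma 3.58.1 in R 4.3.3 fitted 4 group means (8 residual degrees of freedom, prior 2.09), with two-sided p-values adjusted over all features (Benjamini-Hochberg), and was tested on simulated data. The number of arrays limits the precision. All 39 measured genes are named, by role; signals per array are printed in full for those with the largest called change of each role group and for those that went against the others. From each further list up to 3 genes per direction with the smallest p are named. The genes and lists were chosen with earlier results of these data known. Nothing in the labels says that replicate numbers pair animals, and the main fit did not pair them. Deviations of arrays with the same number correlated at -0.35 to 0.18 over 18 pairs. With 3 arrays per group these values cannot show that pairing was absent. Alternatives covered background correction, scaling, the deposited table, the filter, probes, slide, replicate number, the 6 arrays of an experiment alone and each array left out. Array coordinates (assembly rn4) were not used. A gene of the pathway lists is not reported here.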

Additional observations from a re-analysis of the deposited data

Results flagged for a closer look

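Got2, the mitochondrial aspartate aminotransferase and the only gene of the further lists whose 2 cisplatin effects differed past the test, was chosen after its values were seen. It had 10.3, 9.82 and 9.81 in gavage cisplatin cortex, against 17.8, 18.4 and 16.1 in gavage water cortex, and 12.99, 11.7 and 12.8 with intravenous cisplatin, against 14.3, 13.8 and 14.8 with intravenous water. Its changes were -0.80 ± 0.08 (SE) with gavage and -0.20 ± 0.08 with intravenous cisplatin (limma, adjusted p = 2.21e-05 and 0.0623), and the interaction term, intravenous minus gavage, was 0.61 (adjusted p = 0.0432, beside 1.20% of all features called). That call was lost with quantile normalization, spike-in scaling, no filter on dim probes and the replicate block, and when most single arrays were left out, at differences between 0.57 and 0.67. With spike-in scaling the intravenous change of Got2 was 0.37.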

How the results depend on the processing

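Of the 39 genes, 35 in the gavage and 28 in the intravenous comparison kept their direction and their side of the threshold wherever they were called, under each alternative run. The exceptions were Arg2, Glul, Got1 and Prodh by gavage, and Aass, Acy3, Amt, Arg2, Ass1, Cbs, Fah, Got1, Hpd, Prodh and Sardh by the intravenous route. The count that rose with gavage cisplatin was 0 with the slide as a fixed block and with the 6 arrays of the experiment alone, and 0 to 1 with single arrays left out. Spike-in scaling, which set 62.5% of all features higher and 9.62% lower by gavage and 54.2% higher and 9.3% lower by the intravenous route, gave medians of -1.93 (gavage) and -1.14 (intravenous) for the set. It turned Prodh to 0.19 and 0.25, Got1 to 0.12 and 0.19 (gavage and intravenous), and Arg2 to 0.10 and Got2 to 0.37 (intravenous). Normexp background correction, chosen after seeing the data and run on median signals because the planned mean-signal version was not run, set 24.6% of features higher and 38.6% lower by gavage. It called 1 gene of the set lower in the difference of effects, beside 452 of 34444 features called lower and 189 called higher. The mean of all probes turned Sds to -0.87 by gavage and called Prodh lower there. With single arrays left out, the difference of effects called 0 to 14 genes higher and 0 to 1 lower, and the water groups differed in 0 to 1 genes. The gene that differed between the water groups was Arg2, in a fit that called 1023 of 34444 features higher there. With the replicate block, 37 and 36 genes fell (gavage and intravenous) and 1 named gene lost its call, while the calls of the difference over all features went to 0 from 413. The cause of these changes was not tested. The slide as a fixed block could not be fitted for the intravenous comparison. No tested probe of the set was saturated or dim on all arrays of a group, and the number of arrays, 3 per group, limits the precision.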
